A study of Mus musculus with 15 samples.

Results

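The genes described here encode integrins, the laminin chains and 4 other proteins of cell attachment and basement membranes, measured by RNA sequencing in mouse cells that differ in the gene for beta-actin. Members were chosen by symbol alone. Genes whose symbols start with Itga or Itgb were taken, except names with the letters bp or bl (integrin-binding proteins among them). The integrin-like gene Itgb2l was kept. Also taken were all genes named Lama, Lamb or Lamc with a number, and Fn1, Nid1, Nid2 and Hspg2. This gave 42 genes of 46603 gene IDs: 18 integrin alpha genes, 9 integrin beta genes, 5 laminin alpha, 3 laminin beta and 3 laminin gamma genes, and those 4. Of them, 33 had enough counts to enter the test.

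Integrins are pairs of an alpha and a beta chain that span the cell membrane, hold a matrix protein outside and connect inside, through talin, kindlin and vinculin, to actin filaments. The alpha chain largely sets the ligand: some pairs hold collagen, some hold laminin, and some hold the short RGD sequence of fibronectin and vitronectin. Laminins are trimers of an alpha, a beta and a gamma chain. They form the sheet of a basement membrane, which nidogens and the proteoglycan perlecan (Hspg2) join to type IV collagen. In bone-forming cultures, fibronectin and collagen I are the main matrix that integrins containing the beta1 chain hold.

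The cells were mouse embryonic fibroblasts of strain BALB/c, from embryos aged 10.5 days, with 3 Actb genotypes, namely wild type (WT), a heterozygote (HET) and a knockout (KO). All groups were grown on Matrigel, itself an extract of laminin-rich basement membrane, and were then switched at confluence to osteogenic medium with dexamethasone and forskolin, with that switch counted as day 0. RNA came from WT and KO cells at day 4 and day 14 and from HET cells at day 14, with 3 libraries in each of the 5 groups. HET cells at day 4 are not analysed here. The labels name no embryo, clone or separate culture for a library, so genotype and the origin of the cells cannot be told apart, and p-values measure the spread between these libraries, which may be technical.

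Libraries held 19878449 to 47486736 counts in genes, and the 42 members took 0.2491% to 0.6452% of them. Actb ran from 1164 to 1193 CPM (read counts per gene scaled to a common library total, with TMM scaling) at day 4 in WT cells, against 129.9 to 139 in KO cells. At day 14 it ran from 2947 to 3067 in WT, 1437 to 1642 in HET and 43.0 to 46.5 in KO, in the order of the labels. HET replicate 2 stood apart from the other HET libraries. Its members lay at a median log2 of -0.358 from the mean of those libraries (20 members). Long genes in general lay at -0.28 and short genes at 0.27. The same tilt was smaller among WT libraries of day 14. Long genes there lay at 0.138, -0.014 and -0.119, each library against the mean of the others in its group. The members are long, with a median exon length of 7133 bases in those tested against 4024.5 over all tested genes, so differences that involve HET are also given without HET replicate 2 where that changes a call. Of 8 osteoblast markers, only Runx2, Alpl, Phex and Col1a1 had enough counts to test, and Ibsp and Dmp1 stood at 0 counts in WT and KO at day 4 and in KO at day 14. The 9 fibroblast markers summed to 1366 to 4047 CPM over the libraries, led by Col1a1, which is also among the osteoblast markers. They did not move together. Dcn averaged 527 CPM in WT and 22.0 in KO at day 4, and 503 in WT, 662 in HET and 42.5 in KO at day 14. Vim averaged 396 and 622 CPM at day 4, and 679.7, 1056 and 1507 at day 14. Thy1 and Lum were at or below 0.157 CPM in the mean of every group.

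At day 4, 17 of the 33 tested members were higher in KO than in WT and 11 were lower (edgeR quasi-likelihood test, adjusted p below 0.05). Over all 15296 tested genes, 35.7% were called higher and 33.8% lower in that comparison. At day 14, 16 were higher in KO and 6 lower, against 30.9% and 32.2% of all tested genes. The median log2 fold change of KO over WT was 0.60 in the tested members and 0.03 in all genes at day 4, and 0.44 and -0.02 at day 14; the day 4 median is the same with the 2 members at 0 counts in KO (Lama1 and Itga9) set at their bounds. The size of the KO-WT difference changed between the days for 25 members, of which 13 moved toward KO and 12 toward WT by day 14, where 30.7% and 34.0% of all genes did (interaction of genotype and day). Most members called at day 14 were also called at day 4: 9 were called in opposite directions at the 2 days (among them Itga1 and Itga11, higher in KO first, and Itga2, Itga6, Itga7, Itgb7, Lama4 and Lamc1, lower first), 7 were higher in KO at both days (Fn1, Itga3, Itga5, Itga10, Itgb1, Itgb2 and Lama3) and 3 were lower at both (Itga9, Itgb5 and Lama1). How often all tested genes follow these patterns was not counted, so the patterns are not shown to be particular to the members. Values marked log2 are log2 fold changes with their SE, for KO over WT unless another pair is named, and each adjusted p is from this edgeR test. The heat map shows the levels behind these calls in every library.

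**Figure D1:**
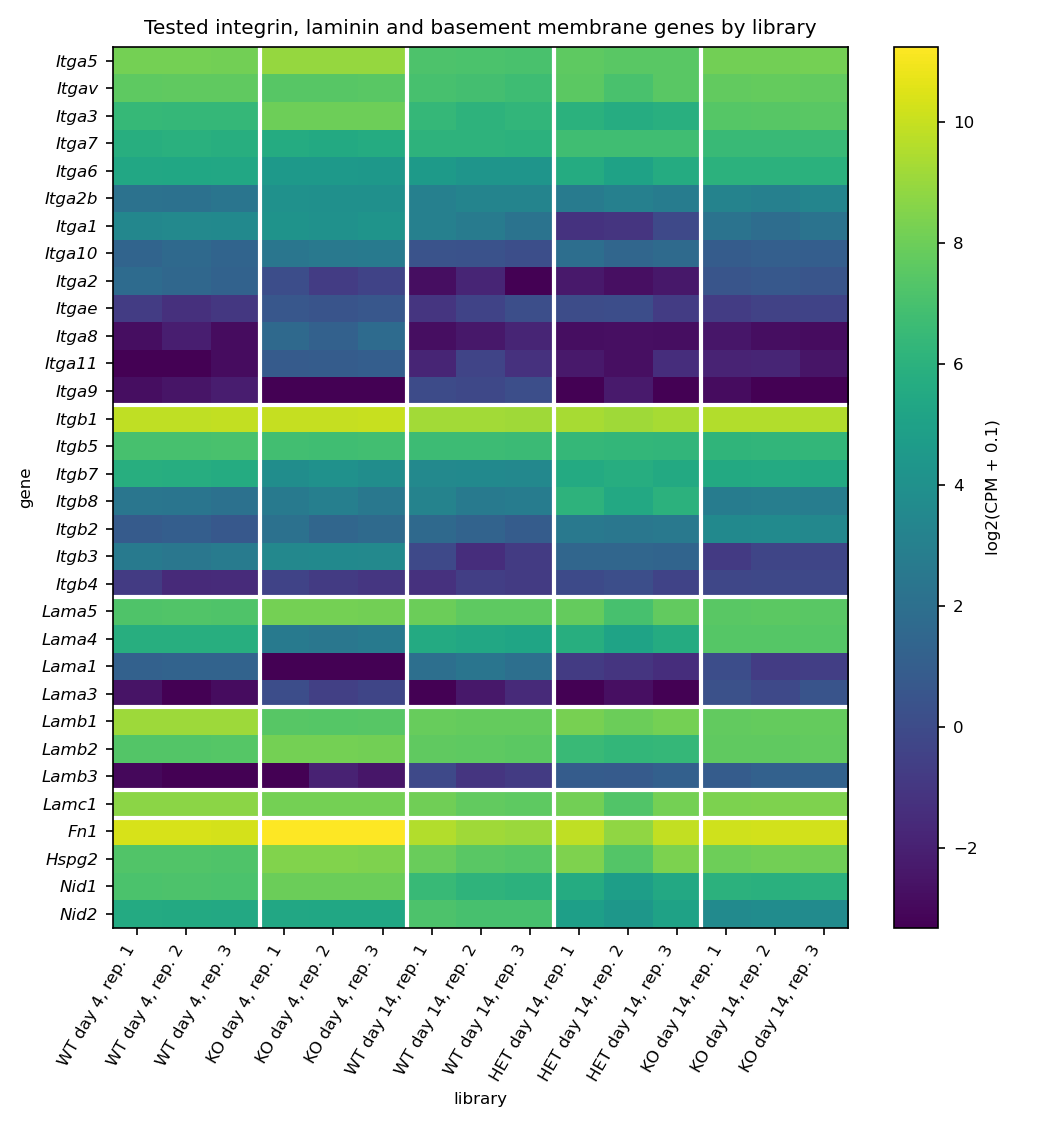
Level of 32 tested members in each of the 15 libraries, as log2 of CPM plus 0.1, with rows grouped into integrin alpha, integrin beta, laminin alpha, laminin beta, laminin gamma and other genes, and sorted by mean level within a group. Itgb1 and Fn1 were high in all 15 libraries; Lama4 and Itgb7 were low in KO at day 4 and high in KO at day 14, and Itgb8 was high in HET.

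The collagen-binding integrins, which pair with Itgb1, split in both direction and timing. Itga1, the receptor for network-forming collagen, read 10.7, 11.6 and 12.0 CPM in WT and 17.7, 16.1 and 18.2 CPM in KO at day 4, so that KO lay above WT in every library (log2 0.60 ± 0.16, adjusted p = 0.0031). At day 14 it read 8.17, 6.45 and 4.58 CPM in WT, 0.335, 0.368 and 0.811 CPM in HET and 4.52, 3.52 and 4.51 CPM in KO. HET was the lowest group by a wide margin there: its highest library, 0.811 CPM, was below the lowest of the other genotypes, and HET differed from WT by log2 -3.63 ± 0.35, adjusted p = 2.29e-08. KO was lower than WT at day 14 (log2 -0.61 ± 0.19, adjusted p = 0.0125), but the groups nearly touched, and the call was lost without WT replicate 1 (log2 -0.39, adjusted p = 0.088) or without KO replicate 2 (log2 -0.50, adjusted p = 0.0593).

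Itga2, which also binds collagen and is known from platelets and epithelia, read 3.27, 2.81 and 2.28 CPM in WT and 0.966, 0.512 and 0.66 CPM in KO at day 4. The day 14 libraries read 0.0467, 0.186 and 0 CPM in WT, 0.0958, 0.0526 and 0.0901 CPM in HET and 1.35, 1.51 and 1.34 CPM in KO. WT thus lost nearly all of its Itga2 RNA with time, while KO rose from a lower start (log2 0.97 ± 0.33, adjusted p = 0.0173; the rise was lost without replicate 2 or 3 of KO at day 4, with adjusted p = 0.0727 and 0.0545). The KO-WT difference turned from log2 -1.97 ± 0.31, adjusted p = 2.61e-05 to log2 4.09 ± 0.70, adjusted p = 4.68e-06, and the interaction was log2 6.06 ± 0.76, adjusted p = 2.16e-07. Itga10, the collagen receptor of cartilage, was higher in KO at both days. It read 2.49, 2.99 and 2.53 CPM in WT and 5.07, 5.92 and 6.3 CPM in KO at day 4 (log2 1.11 ± 0.15, adjusted p = 5.81e-06). By day 14 it read 1.21, 1.16 and 1.03 CPM in WT, 3.78, 2.68 and 3.2 CPM in HET and 1.82, 2.01 and 1.94 CPM in KO (log2 0.76 ± 0.21, adjusted p = 0.00364). Its highest level at day 14 was in HET, which exceeded WT by log2 1.51 ± 0.21, adjusted p = 4.98e-06.

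Itga11, a fibroblast receptor for fibrillar collagen, and Itga8, a chain that recognises RGD ligands such as nephronectin, were highest in KO at day 4. Other members were too, among them Itga1, Itga3, Itga5, Itgb3, Fn1 and Nid1. For Itga8 and Itga11, every other group mean was at or below 0.403 CPM. Itga11 read 0, 0 and 0.0421 CPM in WT and 1.75, 1.76 and 1.93 CPM in KO at day 4, which is 183 counts against 1 and a ratio of 192 (95% counting interval 34.1 to 7643). It read 0.187, 0.696 and 0.327 CPM in WT, 0.0958, 0.0526 and 0.27 CPM in HET and 0.169, 0.183 and 0.0791 CPM in KO at day 14. KO was then called lower than WT (log2 -1.48 ± 0.66, adjusted p = 0.0491), but its highest library, 0.183 CPM, nearly met the lowest WT library, 0.187 CPM. This call was lost under 5 alternative settings, without WT replicate 2 (log2 -0.84, adjusted p = 0.309) or 3, and without any of the KO replicates. Itga8 read 0.0457, 0.13 and 0.0421 CPM in WT and 2.99, 2.21 and 3.3 CPM in KO at day 4 (log2 5.15 ± 0.54, adjusted p = 7.17e-09). Readings at day 14 were 0.0467, 0.0928 and 0.187 CPM in WT, 0.0479, 0.0526 and 0.0451 CPM in HET and 0.0846, 0.0457 and 0.0395 CPM in KO. No day 14 difference in Itga8 passed the test, and within KO it fell by 5.54 ± 0.74 on the log2 scale between the days (adjusted p = 2.39e-08). Itga8 is best known from smooth muscle. The summed level of 7 smooth muscle markers (5 tested) was 2381 to 2393 CPM in KO and 26.1 to 29.5 in WT at day 4. At day 14 it was 54.6 to 60.5 in WT, 99.9 to 112 in HET and 535 to 555 in KO. Most of the KO sum at day 4 was Acta2, itself an actin gene, with a mean of 2116 CPM. The markers did not all move together. Smtn means ran only from 23.4 CPM in HET to 31.5 in KO at day 4. Myh11 and Myocd, the defining ones, were at or below 0.209 CPM in the mean of every group. They averaged 0.16 and 0.0198 CPM in KO at day 4, and were highest in WT at day 14 (Myh11, 0.186) and in HET (Myocd, 0.209). The part of smooth muscle cells in the Itga8 and Itga11 levels was not tested.

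The promoters of Itga8 and Itga11 are shown because these genes were high in the same group, and that of Itgb7 because its KO-WT difference reversed between the days. RefSeq promoters matched 26 of the 42 members. Shown are the 200 bases from 250 to 51 bases before the annotated start, 5′ to 3′ on the gene's strand, on GRCm38.p6, with any match to a searched motif in capitals.
Itga8, minus strand, chr2:12301995-12302194: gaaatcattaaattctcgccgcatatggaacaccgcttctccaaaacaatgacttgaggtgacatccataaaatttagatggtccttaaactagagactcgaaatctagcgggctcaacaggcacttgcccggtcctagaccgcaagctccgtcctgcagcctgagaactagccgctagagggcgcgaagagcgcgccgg
Itga11, plus strand, chr9:62677605-62677804: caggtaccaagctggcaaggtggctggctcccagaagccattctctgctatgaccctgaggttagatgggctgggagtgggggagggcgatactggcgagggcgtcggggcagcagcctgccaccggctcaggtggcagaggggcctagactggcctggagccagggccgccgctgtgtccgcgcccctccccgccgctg
Itgb7, minus strand, chr15:102231986-102232185: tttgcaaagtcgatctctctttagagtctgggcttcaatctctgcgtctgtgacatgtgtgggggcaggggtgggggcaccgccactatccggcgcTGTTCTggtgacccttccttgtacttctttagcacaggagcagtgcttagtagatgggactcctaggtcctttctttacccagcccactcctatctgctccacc
In all, 6 motifs were searched on both strands of these windows, and the only match in the 3 shown is TGTTCT in Itgb7, the other strand of AGAACA, starting 154 bases before the start. AGAACA, part of the glucocorticoid response element, was in 13.2% of 32851 windows of all genes and in 5 of the 26 members (Itga2, Itgax, Itgb1, Itgb7 and Lama2). GGGCGG, the core of Sp1 sites, was in 24.6% of windows and in 9 members, and GGAATG, the core of TEAD sites, was in 10.7% and in Itga10, Lamb3 and Nid1. The CArG box of serum response factor (1.16% of windows), TGANTCA of AP-1 (5.57%) and TGACGTCA of CREB (0.828%) were in none of the 26. A match is a description of these letters only. Overlapping matches of different motifs were counted for each.

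The laminin-binding alpha chains are Itga3, Itga6 and Itga7. Itga3 was higher in KO at both days: 85.8, 84.0 and 81.4 CPM in WT and 263, 265 and 258 CPM in KO at day 4 (log2 1.64 ± 0.07, adjusted p = 7.21e-12). Levels on day 14 were 81.4, 69.4 and 77.3 CPM in WT, 62.7, 50.7 and 58.9 CPM in HET and 170.5, 178 and 180.0 CPM in KO (log2 1.21 ± 0.07, adjusted p = 7.43e-10). The KO-WT gap narrowed with time (interaction log2 -0.43 ± 0.10, adjusted p = 0.00114), and HET was the lowest genotype at day 14 (against WT, log2 -0.40 ± 0.07, adjusted p = 1.71e-04). Itga6 did the reverse of this at day 4. It read 42.1, 40.4 and 42.5 CPM in WT and 23.1, 22.7 and 21.8 CPM in KO at day 4 (log2 -0.88 ± 0.12, adjusted p = 6.43e-06). Later, on day 14, it was at 24.1, 18.9 and 19.3 CPM in WT, 49.7, 33.8 and 49.8 CPM in HET and 66.4, 65.9 and 62.7 CPM in KO, when KO and HET were both above all WT libraries (KO against WT log2 1.65 ± 0.12, adjusted p = 1.40e-08; HET against WT log2 1.10 ± 0.12, adjusted p = 1.58e-06). KO rose between the days while WT fell, which gave an interaction of 2.53 ± 0.17. Itga7, the laminin receptor of muscle, moved the same way by less, from group means of 57.5 ± 2.91 (SD, n = 3) in WT and 48.6 ± 1.77 in KO at day 4 to 67.4 ± 2.74 in WT, 109 ± 0.718 in HET and 93.6 ± 1.35 CPM in KO at day 14. Exons of Itga7 overlap those of Mettl7b on the opposite strand, whose level at day 14 was 7.5 CPM in WT and 2.38 in KO, so it differed in the other direction from Itga7. Itgb4, the partner of Itga6 in hemidesmosomes, stayed at or under 1.05 CPM in all 15 libraries, and its only call, HET over WT at day 14 (log2 0.92 ± 0.38, adjusted p = 0.044), was lost under 4 alternative settings, DESeq2 (adjusted p = 0.0722) and a replicate block (adjusted p = 0.0577) among them. It was also lost without WT replicate 1 or 3 or HET replicate 1 or 2 (adjusted p from 0.0816 to 0.169).

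Among the chains of fibronectin and vitronectin receptors described next, Itga5 and Itgb1 were called higher in KO at both days. Itgav was called higher only at day 14 and Itgb3 only at day 4, and Itgb5 was lower at both. Itga5, the alpha chain of the main fibronectin receptor, read 299, 295 and 278 CPM in WT and 493, 492 and 495 CPM in KO at day 4 (log2 0.76 ± 0.05, adjusted p = 5.08e-10). Day 14 readings came to 144, 139 and 135 CPM in WT, 197, 181 and 186 CPM in HET and 286, 287 and 288 CPM in KO (log2 1.04 ± 0.05, adjusted p = 3.30e-11). All KO libraries lay above all WT libraries at both days, and HET lay between them at day 14 (against WT, log2 0.43 ± 0.05, adjusted p = 1.09e-06). Itgb1, the shared partner of the collagen, laminin and fibronectin receptors, read 905, 904 and 942 CPM in WT and 998, 1005 and 1017 CPM in KO at day 4. Its day 14 values were 608, 599 and 569.9 CPM in WT, 648, 585 and 644 CPM in HET and 754, 763 and 759.9 CPM in KO. HET and WT did not differ by the test (log2 0.08 ± 0.05, adjusted p = 0.175), but without HET replicate 2 HET was higher (log2 0.12, adjusted p = 0.00384). The KO-WT difference was small next to that of Itga5, at log2 0.13 ± 0.05, adjusted p = 0.0208 at day 4 and log2 0.36 ± 0.05, adjusted p = 9.70e-06 at day 14. The day 4 call was lost when any of 5 single libraries (WT replicates 1 and 2, KO replicates 1, 2 and 3) was left out, with adjusted p from 0.0503 to 0.0854. With no filter on low counts that call was lost too (log2 0.12, adjusted p = 0.107). The larger difference at day 14 (interaction log2 0.22 ± 0.07, adjusted p = 0.00918) was not seen after correction for length and GC content (log2 0.01, adjusted p = 0.894).

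Itgav, which pairs with several beta chains to hold vitronectin, read 200.3, 203 and 206 CPM in WT and 173, 178 and 179.6 CPM in KO at day 4, a difference that did not pass (log2 -0.20 ± 0.09, adjusted p = 0.0737). KO was called lower at day 4 with no filter on low counts (log2 -0.21, adjusted p = 0.0115). A fit to the groups compared alone also called it (log2 -0.21, adjusted p = 1.27e-11). The day 14 libraries read 126, 118 and 104 CPM in WT, 191, 135 and 180.4 CPM in HET and 211, 219.7 and 214 CPM in KO, when KO was above WT (log2 0.89 ± 0.10, adjusted p = 9.79e-07). HET also exceeded WT (log2 0.54 ± 0.10, adjusted p = 1.75e-04), with its replicate 2 the lowest. Of its partners, Itgb5 was lower in KO at both days by small amounts (-0.20 ± 0.05 and -0.39 ± 0.05 on the log2 scale), with group means from 76.6 ± 1.69 CPM in KO at day 14 to 129 ± 2.81 in WT at day 4 (SD, n = 3). Itgb3, shared by the vitronectin receptor and the platelet fibrinogen receptor, was a gene of day 4. It read 6.36, 5.35 and 6.53 CPM in WT and 10.9, 11.8 and 11.7 CPM in KO at day 4 (log2 0.92 ± 0.15, adjusted p = 5.07e-05). By day 14 it read 0.84, 0.278 and 0.467 CPM in WT, 2.68, 2.73 and 2.48 CPM in HET and 0.465, 0.732 and 0.712 CPM in KO. It fell by 3.51 in WT and by 4.16 in KO on the log2 scale, and HET was higher than WT at day 14 (log2 2.30 ± 0.29, adjusted p = 1.78e-06).

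Itgb8, which with Itgav releases latent TGF-beta, set HET apart from both other genotypes at day 14. It read 5.21, 4.93 and 4.3 CPM in WT and 6.01, 7.8 and 5.61 CPM in KO at day 4. That difference did not pass (log2 0.41 ± 0.19, adjusted p = 0.0661). KO was called higher at day 4 with no filter on low counts (adjusted p = 0.0107) and in the groups compared alone (0.00452). The length and GC correction (0.00248) and the fit without KO replicate 3 of day 4 (0.0481) also called it. Readings at day 14 were 9.06, 5.94 and 6.78 CPM in WT, 66.9, 43.3 and 64.6 CPM in HET and 6.77, 7.32 and 7.23 CPM in KO. KO and WT overlapped at day 14 (log2 -0.03 ± 0.20, adjusted p = 0.903), while the lowest HET library was far above the highest WT library (log2 3.01 ± 0.18, adjusted p = 9.59e-10). The gap to KO was of similar size, with KO minus HET at log2 -3.04 ± 0.18, adjusted p = 7.93e-10. Itga2b, the platelet fibrinogen receptor chain, read 4.37, 4.26 and 4.89 CPM in WT and 16.6, 16.0 and 15.5 CPM in KO at day 4 (log2 1.84 ± 0.10, adjusted p = 2.35e-10). Levels on day 14 were 8.17, 9.56 and 9.58 CPM in WT, 6.51, 7.94 and 6.94 CPM in HET and 9.05, 8.1 and 9.61 CPM in KO, when KO and WT did not differ by the test (log2 -0.03 ± 0.11, adjusted p = 0.836). HET lay slightly lower (log2 -0.35 ± 0.11, adjusted p = 0.0124), a call that was lost without HET replicate 1 (log2 -0.29, adjusted p = 0.0602) and under 3 alternative settings. The 4 platelet markers summed to 5.24 to 5.82 CPM in KO and 0.969 to 1.76 in WT at day 4. At day 14 they summed to 1.64 to 2.47 CPM in WT, 4.64 to 7.2 in HET and 1.31 to 2.1 in KO. These markers did not move together. Pf4 averaged 3.09 CPM in HET and at most 0.1 in the other groups, while Ppbp was highest in KO at day 4 (4.55 CPM). Gp9, a defining one, was at or below 0.0303 CPM in the mean of every group. The part of such cells in the Itga2b level was not tested.

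Among chains best known from leukocytes, Itgb7 was the most abundant. It read 54.9, 53.1 and 50.6 CPM in WT and 14.2, 16.5 and 14.1 CPM in KO at day 4. Later, on day 14, it was at 11.5, 11.8 and 11.1 CPM in WT, 48.5, 53.4 and 45.9 CPM in HET and 46.8, 47.0 and 46.2 CPM in KO. WT was high first and low later, and KO the reverse, with no overlap at either day. KO minus WT was log2 -1.83 ± 0.07, adjusted p = 3.74e-12 at day 4 and log2 2.02 ± 0.08, adjusted p = 6.19e-12 at day 14, which makes the interaction log2 3.85 ± 0.11, adjusted p = 1.24e-13. HET lay far above WT at day 14 (log2 2.10 ± 0.08, adjusted p = 5.30e-12), and its difference from KO did not pass (log2 -0.08 ± 0.07, adjusted p = 0.367). The alpha chains that pair with it were scarce: Itga4 had at most 11 counts in any group, and Itgae had at most 1.43 CPM in a library. Itgae read 0.503, 0.312 and 0.421 CPM in WT and 1.42, 1.25 and 1.43 CPM in KO at day 4 (log2 1.71 ± 0.35, adjusted p = 3.14e-04). Day 14 readings came to 0.373, 0.649 and 1.03 CPM in WT, 0.958, 0.999 and 0.496 CPM in HET and 0.507, 0.64 and 0.672 CPM in KO, when no comparison passed.

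Itgb2, the beta chain of leukocyte integrins, read 1.71, 1.92 and 1.52 CPM in WT and 4.23, 2.72 and 3.22 CPM in KO at day 4 (log2 0.96 ± 0.19, adjusted p = 2.59e-04). Its day 14 values were 3.03, 2.41 and 1.82 CPM in WT, 5.89, 5.41 and 5.81 CPM in HET and 11.8, 12.5 and 10.9 CPM in KO (log2 2.27 ± 0.18, adjusted p = 2.72e-08). The genotypes were ordered WT, HET, KO at day 14 with no overlap between neighbours. Its alpha partners Itgal, Itgam, Itgax and Itgad were not tested, with at most 6, 8, 2 and 36 counts in a group, and Itgad shares exons with Cox6a2 on the other strand. The leukocyte markers (8, of which 4 were tested) summed at day 4 to 79.4 to 83.9 CPM (WT) and 84.0 to 87.7 (KO). At day 14 the sum was 36.6 to 38.9 (WT), 141 to 176 (HET) and 119 to 126 (KO). Most of that sum is Cd14. The markers did not move together at day 14: Cd68 averaged 6.27 CPM in WT, 7.08 in HET and 37.9 in KO, while Csf1r averaged 0.59 in WT, 0.308 in HET and 0.0566 in KO. Ptprc, the defining gene, averaged 0.264 CPM in WT and 0.0141 in KO at day 14 and had 0 counts in both at day 4, and Adgre1 was at or below 0.0778 CPM in every group mean. Itga9, which binds tenascin, was highest in WT at day 14, at 0.887, 0.789 and 1.03 CPM, and had 2 counts in HET and 1 in KO. The WT to KO ratio was 63.8 (95% counting interval 11.0 to 2563) and the WT to HET ratio 28.0 (7.4 to 236). At day 4 it had 8 counts in WT and 0 in KO, which was at least 2.54-fold lower with KO set at 3 counts over the group.

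**Figure D2:**
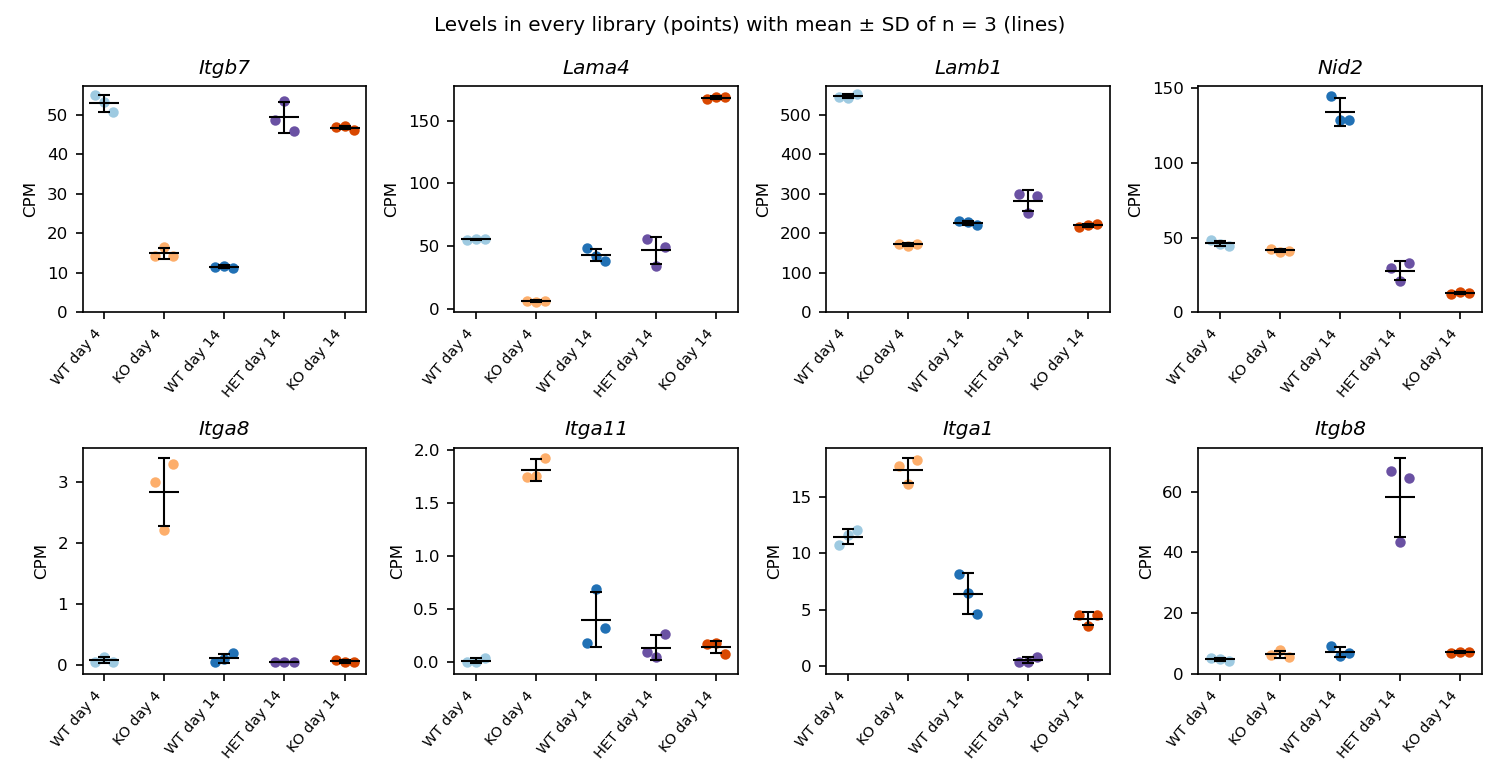
CPM of 8 members in every library (points), with the mean and SD of 3 libraries as lines, for WT and KO at day 4 and WT, HET and KO at day 14. Itgb7 and Lama4 reversed their order between WT and KO, Itga8 and Itga11 were high in KO at day 4, Nid2 was high in WT at day 14, and Itgb8 was high and Itga1 low in HET.

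Lama4, the laminin alpha chain of vessel, fat and nerve basement membranes, had the largest interaction of genotype and day among the laminins with counts in every group. It read 55.0, 56.0 and 55.5 CPM in WT and 6.43, 5.47 and 6.35 CPM in KO at day 4. The day 14 libraries read 48.2, 42.2 and 38.4 CPM in WT, 56.0, 34.5 and 49.1 CPM in HET and 167, 169 and 169 CPM in KO. KO was the lowest group at day 4 (log2 -3.19 ± 0.14, adjusted p = 1.28e-11) and the highest at day 14 (log2 1.97 ± 0.12, adjusted p = 2.19e-09), with no overlap at either day. Within KO it rose by log2 4.79 ± 0.14, adjusted p = 3.12e-13, and the interaction was log2 5.16 ± 0.19, adjusted p = 2.72e-12. HET and WT did not differ by the test at day 14 (log2 0.12 ± 0.13, adjusted p = 0.449), but without HET replicate 2 HET was higher (log2 0.29, adjusted p = 0.00156). The decline in WT between the days (log2 -0.37 ± 0.12, adjusted p = 0.0142) became 0.08 after correction for length and GC content and was lost without WT replicate 3 (log2 -0.30, adjusted p = 0.0683). The 7 endothelial markers (3 tested, led by Kdr) summed at day 4 to 11.3 to 14.4 CPM (WT) and 0.664 to 0.799 (KO), and at day 14 to 3.55 to 4.39 (WT), 1.42 to 2.44 (HET) and 2.93 to 4.43 (KO). Tie1 and Erg were at 0 in both genotypes at day 4, and the part of these cells in the Lama4 level was not tested.

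Lama5, the broadly expressed alpha chain, had group means of 154 ± 1.87 CPM in WT and 289.9 ± 3.71 in KO at day 4 (SD, n = 3; log2 0.92 ± 0.14, adjusted p = 3.25e-05), and of 215 ± 31.8 in WT, 186 ± 50.7 in HET and 183 ± 3.75 in KO at day 14, with no call among these. Without HET replicate 2, KO was below HET (log2 -0.23, adjusted p = 0.00884). KO was called below WT at day 14 with no filter on low counts (log2 -0.19, adjusted p = 0.0252). The same call came from the groups compared alone (log2 -0.24, adjusted p = 0.0183) and the length and GC correction (log2 -0.33, adjusted p = 2.08e-04). That correction also put KO below HET (log2 -0.21, adjusted p = 0.01). With no filter, HET was below WT (log2 -0.19, adjusted p = 0.0332). Lama1, the alpha chain of early embryonic basement membrane, had no counts in KO at day 4. It read 2.19, 2.42 and 2.36 CPM in WT and had 0 counts in the 3 KO libraries together, so that KO was at least 77.7-fold lower, with KO set at 3 counts over the group (adjusted p = 5.95e-09). At day 14 it read 3.97, 4.92 and 3.83 CPM in WT, 0.479, 0.368 and 0.27 CPM in HET and 0.973, 0.503 and 0.553 CPM in KO, lower in KO (log2 -2.64 ± 0.27, adjusted p = 1.10e-06) and in HET (log2 -3.50 ± 0.34, adjusted p = 2.18e-07) than in WT. Lama3, the alpha chain of the epithelial attachment laminin, read 0.0686, 0 and 0.0421 CPM in WT and 0.966, 0.576 and 0.715 CPM in KO at day 4 (log2 4.16 ± 0.93, adjusted p = 5.07e-05). By day 14 it read 0, 0.0928 and 0.234 CPM in WT, 0, 0.0526 and 0 CPM in HET and 1.1, 0.823 and 1.3 CPM in KO (log2 3.26 ± 0.74, adjusted p = 3.13e-04). KO was the only genotype above 0.234 CPM in any library.

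Lamb3, a beta chain of the same epithelial laminin, had 1 count in WT and 8 in KO at day 4, a ratio of 8.41 (95% counting interval 1.13 to 373; adjusted p = 0.0505), and read 0.84, 0.371 and 0.467 CPM in WT, 1.82, 1.68 and 2.07 CPM in HET and 1.78, 2.2 and 2.33 CPM in KO at day 14. KO and HET were then both above WT (log2 1.90 ± 0.41, adjusted p = 6.10e-04 for KO; log2 1.73 ± 0.41, adjusted p = 0.00165 for HET). The 8 epithelial markers (3 tested) summed at day 4 to 0.229 to 0.364 CPM (WT) and 4.23 to 4.46 (KO). At day 14 they summed to 1.95 to 3.32 (WT), 0.451 to 1.47 (HET) and 9.6 to 10.7 (KO). Krt14 made up most of the last sum, Epcam was at 0 in KO at both days, and their part in these levels was not tested.

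The 2 abundant beta chains differed between KO and WT at day 4 and not, by the test, at day 14, and the common gamma chain differed at both days in opposite directions. Lamb1 read 544, 543 and 553 CPM in WT and 173, 168 and 173 CPM in KO at day 4, with no overlap (log2 -1.67 ± 0.06, adjusted p = 7.00e-13). At day 14 it read 229.9, 227 and 221 CPM in WT, 300.1, 251 and 293 CPM in HET and 216, 221 and 224 CPM in KO, and KO and WT overlapped (log2 -0.03 ± 0.06, adjusted p = 0.623), although KO was lower after correction for length and GC content (log2 -0.28, adjusted p = 2.33e-05). Between the days WT fell (log2 -1.27 ± 0.06, adjusted p = 1.61e-11) and KO rose (log2 0.36 ± 0.06, adjusted p = 5.14e-05). Lamb2, the other common beta chain, differed in the opposite sense: it read 164, 161 and 167 CPM in WT and 293, 296 and 284 CPM in KO at day 4 (log2 0.83 ± 0.06, adjusted p = 1.97e-09). Readings at day 14 were 203, 198 and 188 CPM in WT, 92.9, 79.0 and 82.0 CPM in HET and 206, 207 and 212 CPM in KO, when KO and WT did not differ by the test (log2 0.09 ± 0.06, adjusted p = 0.189) and HET was far below both (against WT, log2 -1.21 ± 0.06, adjusted p = 7.16e-11). For Lamb2, KO was above WT at day 14 after correction for length and GC content (log2 0.15, adjusted p = 0.00615). Lamc1, the common gamma chain, read 411, 418 and 412 CPM in WT and 291, 293 and 295 CPM in KO at day 4 (log2 -0.50 ± 0.16, adjusted p = 0.0116). Levels on day 14 were 268, 217 and 196 CPM in WT, 278, 156 and 289 CPM in HET and 332, 342 and 343 CPM in KO (log2 0.58 ± 0.16, adjusted p = 0.00561). HET and WT did not differ by the test (log2 0.09 ± 0.16, adjusted p = 0.669), but without HET replicate 2, which was the lowest of the 3, HET was higher (log2 0.32, adjusted p = 0.00222).

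Levels of different chains can be compared once divided by the length of their exons (CPM per kilobase of exon). On that scale Lama4 made up 25.1% ± 0.0759 of laminin alpha RNA in WT and 1.94% ± 0.177 in KO at day 4, and 15.5% ± 0.751 in WT, 19.2% ± 1.13 in HET and 46.2% ± 0.324 in KO at day 14 (SD, n = 3). Lama5 made up nearly all of the rest, from 53.2% in KO at day 14 to 97.8% in KO at day 4. Lamb1 made up 67.1% ± 0.204 of laminin beta RNA in WT and 26.6% ± 0.707 in KO at day 4, and 41.3% ± 0.533 in WT, 66.6% ± 1.35 in HET and 39.1% ± 0.175 in KO at day 14. The Lamb1 share of HET at day 14 was thus near that of WT at day 4, and those of WT and KO at day 14 were near each other. Which chain is in the majority depended on the length used in 3 cases: with the longest transcript in place of all exons, Lama4 took 63.2% in KO at day 14, and Lamb1 took 52.8% in WT and 50.4% in KO at day 14. Over all families, 42 shares of at least 20% were compared between these lengths. Of them, 38 moved past 1 SD, with a largest move of 17.0 percentage points. The SD covers the spread between libraries and not the choice of length. No test was made on shares, because 3 libraries against 3 cannot go below p = 0.1 in an exact permutation test.

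**Figure D3:**
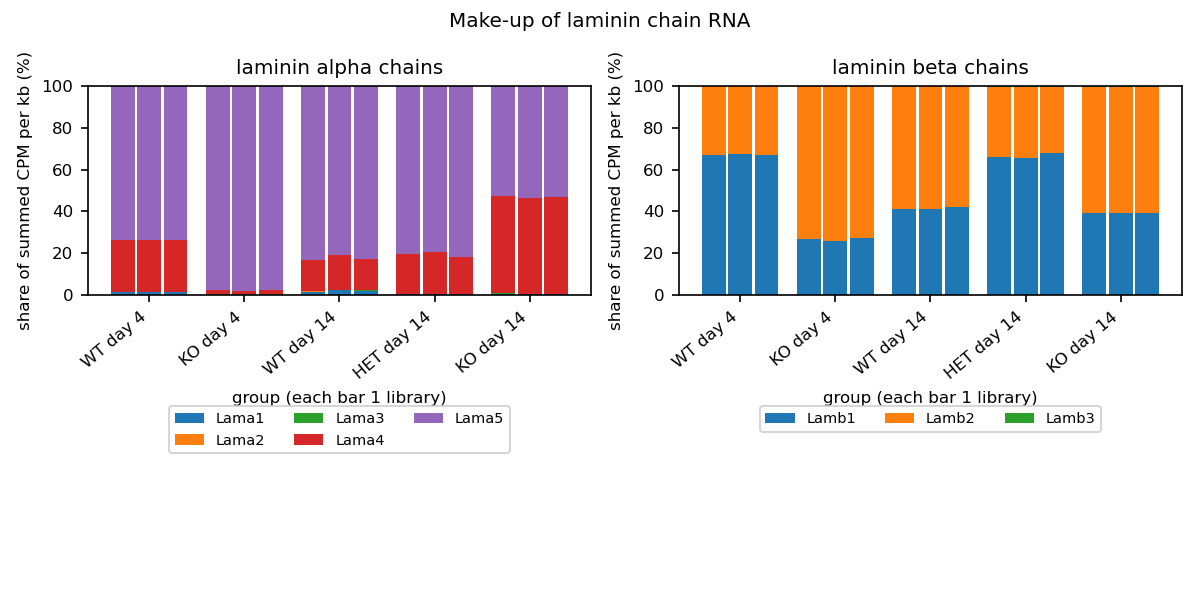
Share of each chain in the summed CPM per kilobase of exon of laminin alpha and beta genes, in percent, with each bar 1 library and 3 libraries in each group. Lama4 (red, left) takes 1.94% in KO at day 4 and 46.2% in KO at day 14, and Lamb1 (blue, right) takes 67.1% in WT but 26.6% in KO at day 4.

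Fn1, fibronectin, was higher in KO at both days. It read 1296, 1288 and 1272 CPM in WT and 2405, 2419.6 and 2408 CPM in KO at day 4 (log2 0.91 ± 0.19, adjusted p = 6.12e-04). Later, on day 14, it was at 747, 572 and 540.1 CPM in WT, 930.2, 446 and 943 CPM in HET and 1162, 1224 and 1209.8 CPM in KO (log2 0.95 ± 0.19, adjusted p = 5.40e-04). KO was above WT in every library at both days by nearly the same amount (interaction log2 0.04 ± 0.27, adjusted p = 0.903), and it fell with time in both genotypes. HET did not differ from WT by the test (log2 0.32 ± 0.19, adjusted p = 0.174); HET replicate 2 had less than the other HET libraries, and without it HET was higher (log2 0.59, adjusted p = 1.14e-04). Hspg2, perlecan, read 158, 158 and 153 CPM in WT and 353, 352 and 337 CPM in KO at day 4 (log2 1.15 ± 0.20, adjusted p = 8.11e-05). Day 14 readings came to 238, 186 and 170.1 CPM in WT, 347, 161 and 336 CPM in HET and 258, 277 and 272 CPM in KO. The KO-WT difference at day 14 did not pass (log2 0.44 ± 0.20, adjusted p = 0.0614), but 5 alternatives called it: DESeq2 (log2 0.46, adjusted p = 0.0489), no filter on low counts (3.15e-11), a fit to the groups compared alone (0.00116), the length and GC correction (0.0211) and the fit without WT replicate 1 (0.0239). HET was called above WT (log2 0.51 ± 0.20, adjusted p = 0.0375), which was lost in the fit to the groups compared alone and without WT replicate 2 or 3 or HET replicate 1 or 3 (adjusted p from 0.106 to 0.181). Without HET replicate 2, KO was below HET (log2 -0.35, adjusted p = 0.00362). The interaction (log2 -0.71 ± 0.28, adjusted p = 0.0352) was also lost without any of 10 single libraries of WT or KO, the smallest value being -0.55 without WT replicate 1.

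The 2 nidogens, which link laminin to collagen IV, differed in the day of the larger KO-WT difference. In the main fit Nid1 was called at day 4 and Nid2 at day 14. Nid1 read 139, 143 and 136 CPM in WT and 247, 254 and 255 CPM in KO at day 4 (log2 0.86 ± 0.14, adjusted p = 4.52e-05). Its day 14 values were 91.1, 71.2 and 66.3 CPM in WT, 49.3, 28.4 and 44.3 CPM in HET and 64.8, 60.6 and 65.4 CPM in KO, when KO and WT did not differ by the test (log2 -0.26 ± 0.14, adjusted p = 0.126) and HET was lower than WT (log2 -0.90 ± 0.15, adjusted p = 7.17e-05). For Nid1 at day 14, 3 alternatives called KO lower than WT. They were no filter on low counts (log2 -0.22, adjusted p = 0.0216) and the groups compared alone (log2 -0.27, adjusted p = 0.0277). The third was the length and GC correction (log2 -0.41, adjusted p = 0.00283). Nid1 fell between the days in both genotypes, by 0.87 in WT and 1.99 in KO on the log2 scale. Nid2 read 48.2, 45.8 and 44.6 CPM in WT and 42.6, 40.3 and 41.3 CPM in KO at day 4, a difference that did not pass (log2 -0.16 ± 0.11, adjusted p = 0.21). A fit to the groups compared alone called KO lower at day 4 (log2 -0.17, adjusted p = 7.02e-04). So did the length and GC correction (log2 -0.26, adjusted p = 0.0109). The day 14 libraries read 145, 129 and 129 CPM in WT, 29.7, 20.9 and 32.9 CPM in HET and 12.2, 13.3 and 13.1 CPM in KO. WT stood alone as the high genotype there: KO was lower by log2 -3.39 ± 0.12, adjusted p = 2.78e-12, and HET by log2 -2.27 ± 0.11, adjusted p = 1.60e-10. Nid2 rose in WT (log2 1.54 ± 0.11, adjusted p = 3.18e-09) and fell in KO (log2 -1.69 ± 0.12, adjusted p = 6.58e-09), for an interaction of -3.23 ± 0.16. Exons of Nid2 overlap those of Rtraf on the opposite strand, and the kit used keeps no strand information. Rtraf was 117 CPM in WT and 84.0 in KO at day 14 (log2 -0.48 ± 0.10), a difference much smaller than that of Nid2.

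**Figure D4:**
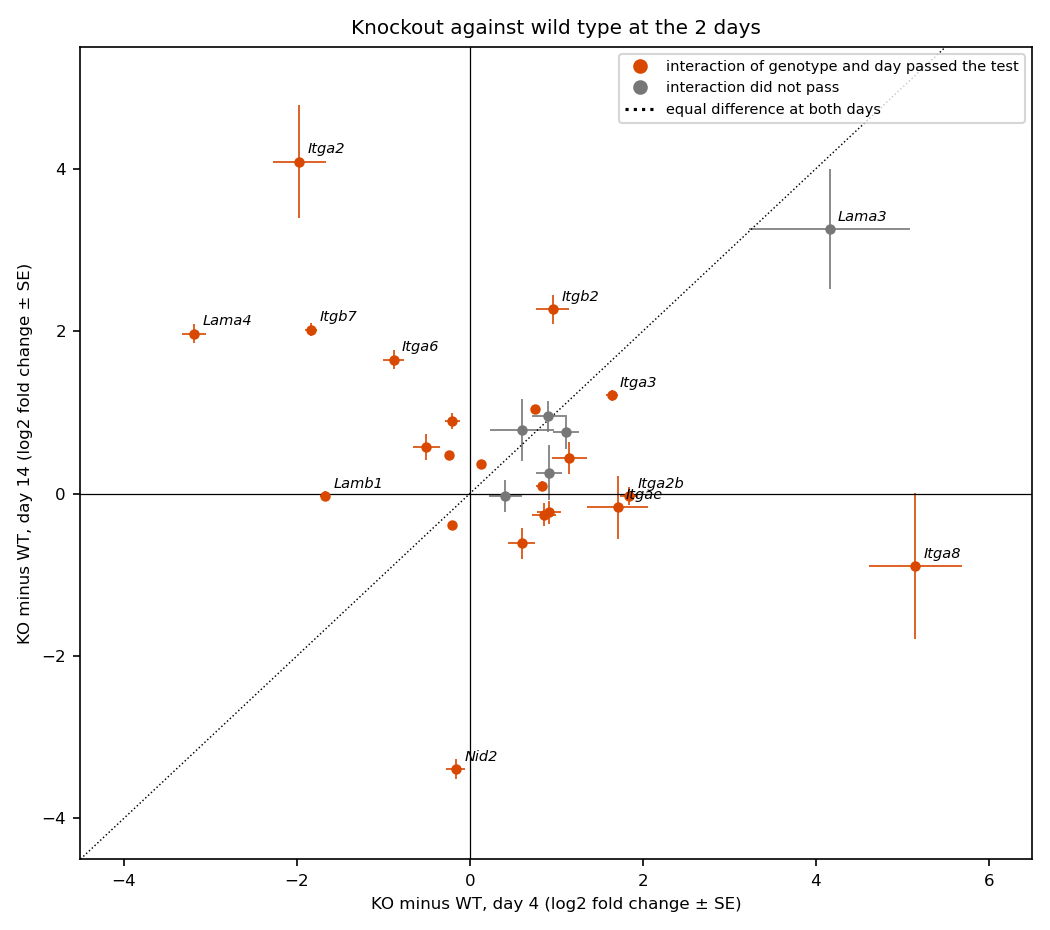
Log2 fold change of KO over WT at day 4 (horizontal) and day 14 (vertical) for 28 members, each with its SE; orange marks members whose interaction of genotype and day passed the test, grey those that did not, and the dotted line marks an equal difference at both days. Itga11, Itga9, Lama1 and Lamb3, with 3 counts or fewer in a group, are not drawn; Lama4, Itgb7, Itga2 and Itga6 lie in the upper left, and Nid2 lies at the bottom.

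Between day 4 and day 14, 11 members rose in WT and 16 fell, where 39.7% and 34.9% of all tested genes did. In KO, 10 rose and 16 fell, against 30.8% and 30.1%. The median log2 change was -0.14 for the members and 0.08 for all genes in WT, and -0.37 and -0.00 in KO. In both genotypes Itga5, Itgb1, Itgb3, Itga10, Nid1 and Fn1 fell. Itga5 dropped by 1.06 in WT and 0.78 in KO on the log2 scale, and Itgb1 by 0.63 and 0.41. Summed over all 18 integrin alpha genes, the level per length was 107 ± 2.48 CPM per kilobase in WT and 177 ± 0.1 in KO at day 4, and 65.7 ± 2.79 in WT, 84.4 ± 6.32 in HET and 130.5 ± 1.31 in KO at day 14 (SD, n = 3). The share of laminin-binding alpha chains (Itga3, Itga6 and Itga7) was 24.7% in WT and 30.7% in KO at day 4, and 36.4% in WT, 33.6% in HET and 38.0% in KO at day 14. That of the RGD-binding chains (Itga2b, Itga5, Itga8 and Itgav) was 73.7% and 67.7% at day 4, and 62.0%, 65.3% and 61.2% at day 14. Collagen-binding chains made up at most 1.5% of the sum in any library. These shares use the length of all exons and depend on that choice. For Itga6 it is 9025 bases against 4310 in the longest transcript, and for Itga7 8092 against 4020.

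Per kilobase of exon, Itgb1 was the most abundant member in all 5 groups, from 145 ± 4.92 in WT at day 14 to 247 ± 2.36 CPM per kilobase in KO at day 4, and it made up 76.1% to 85.8% of integrin beta RNA. Fn1 came next in all 5. Itga5 was the third in 4 groups and the fifth in WT at day 14, where Lamb2, Itgb5, Itga5 and Lamc1 (32.3 ± 1.32, 28.3 ± 0.578, 28.3 ± 0.843 and 27.4 ± 4.44) lay close together. The last 3 of these did not differ beyond their spread. Itga5 made up 43.0% to 56.5% of integrin alpha RNA in the group means. Nid2 reached the 10 most abundant members only in WT at day 14, at 26.0 ± 1.75, and Itgb7 only in WT at day 4 (19.1 ± 0.786) and HET (17.8 ± 1.37).

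At day 14, HET was compared with each of the other genotypes, which share the HET libraries. Against WT, 13 members were higher in HET and 10 lower, where 28.3% and 29.9% of all tested genes were. Against HET, 16 members were higher in KO and 6 lower, where 29.4% and 30.1% were. Without HET replicate 2 these counts were 16 and 10 for HET against WT, and 16 and 9 for KO against HET. The HET mean lay between those of WT and KO for 14 of the 33 tested members (among them Itga5, Itga6, Itgav, Itgb2, Lama4 and Nid2), above both for 9 (among them Itgb8, Itga10, Itgb3 and Lamb1) and below both for 10 (among them Itga1, Lamb2 and Nid1). For Lamb1 the HET level exceeded WT by log2 0.32 ± 0.06, adjusted p = 2.11e-04, and for Itga7 by log2 0.69 ± 0.05, adjusted p = 1.87e-08. These positions are a description of the means and were not tested as such. How often all tested genes take each position was not counted, so the positions are not shown to be particular to the members.

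Other genes of the pathway came from 4 lists that hold no member. Of 28 genes for adaptors, kinases and regulators at integrin adhesions, 27 were tested. In KO, 17 were higher and 2 lower at day 4, and 14 and 4 at day 14. In HET, 14 were higher and 6 lower. The median log2 fold change was 0.47, 0.21 and 0.15, against 0.03, -0.02 and -0.02 over all genes. Of all tested genes, 35.7% were higher and 33.8% lower in KO at day 4. The shares at day 14 were 30.9% and 32.2% in KO, and 28.3% and 29.9% in HET. No list was tested as a whole. Tns1, a tensin, was higher in KO at both days (log2 fold change 4.11 ± 0.15 and 2.69 ± 0.15; bracketed values for the list genes are log2 fold changes with SE, all past the test), with means of 18.4 CPM in WT and 317 in KO at day 4. Kank1, which binds talin, was higher in KO at day 4 (2.42 ± 0.12) and lower at day 14 (-0.31 ± 0.09). Actn1, alpha-actinin, was higher in KO at both days (1.29 ± 0.08 and 1.39 ± 0.08) and in HET (1.05 ± 0.08). Lower at day 4 were Parvb (-0.82 ± 0.07) and Lims1 (-0.31 ± 0.05), both of the complex around integrin-linked kinase; at day 14 Parvb was higher in KO (0.41 ± 0.07). Src and Tgfb1i1 were higher in KO at day 4 (0.21 ± 0.05 and 2.24 ± 0.10) and lower at day 14 (-0.54 ± 0.05 and -0.64 ± 0.10). In HET, Zyx was higher (0.83 ± 0.05), and Tgfb1i1 (-1.64 ± 0.11) and Flna (-0.95 ± 0.12) were lower; Flna was higher in KO at both days (0.83 ± 0.12 and 1.08 ± 0.12).

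Of 24 other basement membrane genes, 20 were tested. In KO, 8 were higher and 7 lower at day 4, where 35.7% and 33.8% of all tested genes were. At day 14, 6 were higher and 9 lower in KO, against 30.9% and 32.2%. In HET, 9 were higher and 8 lower, against 28.3% and 29.9%. The medians were -0.00, -0.20 and 0.17, against 0.03, -0.02 and -0.02 over all genes. The collagen IV chains Col4a1 and Col4a2, the network to which laminin is linked, were higher than WT at day 14 in KO (1.59 ± 0.08 and 1.71 ± 0.08) and in HET (1.43 ± 0.08 and 1.58 ± 0.08). Efemp1, a fibulin, was 46.3 ± 2.43 CPM in WT, 102 ± 4.63 in HET and 0.188 ± 0.133 in KO at day 14. Fbln1, another fibulin, was lower in KO at day 14 (-0.96 ± 0.06). At day 4, Tinagl1 (1.74 ± 0.06) and Fbln2 (1.58 ± 0.07) were higher in KO, and at day 14 Fbln2 was lower (-0.34 ± 0.07). Ntn4, a netrin that binds laminin, was lower in KO at day 4 (-5.54 ± 0.23) and in HET at day 14 (-2.80 ± 0.27), and Fras1 was lower in KO at day 4 (-6.41 ± 0.53). Tinagl1 was lower in HET (-0.99 ± 0.05).

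Of 18 other integrin ligands, 15 were tested. In KO, 7 were higher and 7 lower at day 4, where 35.7% and 33.8% of all tested genes were. At day 14, 4 were higher and 9 lower in KO, against 30.9% and 32.2%. In HET, 6 were higher and 6 lower, against 28.3% and 29.9%. The medians were -0.09, -0.73 and 0.08, against 0.03, -0.02 and -0.02 over all genes. Ccn2, a matricellular ligand, was higher in KO at both days (3.38 ± 0.14 at day 4, and 24.8 ± 1.25 CPM in KO against 3.11 ± 0.727 in WT at day 14), and Thbs2, a thrombospondin, lower at both (-6.83 ± 0.11 and -5.46 ± 0.21). Col1a1, the collagen I chain, was higher in KO at day 4 (2.84 ± 0.06) and Vcam1, a ligand of Itga4 and Itga9 integrins, was lower (-2.04 ± 0.05). At day 14, Ccn3 was higher (1.33 ± 0.12) and Tgfbi lower (-5.66 ± 0.66) in KO. In HET, Tgfbi was higher (1.93 ± 0.15), Thbs1 (-2.09 ± 0.13) and Ccn1 (-0.66 ± 0.05) were lower (in KO, Thbs1 was higher at day 4, 1.44 ± 0.12, and lower at day 14, -1.02 ± 0.12), and Col1a2 was 489 ± 37.0 CPM against 0.31 ± 0.163 in WT.

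Of 12 genes for laminin receptors other than integrins and for proteins of the dystroglycan complex, 11 were tested. In KO, 7 were higher and 2 lower at day 4, where 35.7% and 33.8% of all tested genes were. At day 14, 6 were higher and 5 lower in KO, against 30.9% and 32.2%. In HET, 2 were higher and 7 lower, against 28.3% and 29.9%. The medians were 0.35, 0.40 and -0.24, against 0.03, -0.02 and -0.02 over all genes. Sdc3, a syndecan, was higher in KO at both days (4.76 ± 0.13 and 1.79 ± 0.12) and lower in HET (-2.95 ± 0.17). Dtna, a dystrobrevin of the dystroglycan complex, was also higher in KO at both days (2.89 ± 0.09 and 3.28 ± 0.11). Bcam, a receptor for Lama5 laminins, was lower at day 14 in KO (-5.21 ± 0.31) and in HET (-4.23 ± 0.26), from 24.2 ± 0.468 CPM in WT. Sgcb, a sarcoglycan, was higher in KO at day 4 (0.31 ± 0.08) and lower at day 14 (-0.76 ± 0.08). At day 4 the lower genes were Sgce (-0.46 ± 0.08) and Sdc2 (-0.13 ± 0.04), and in HET the higher ones were Sdc2 (0.41 ± 0.04) and Utrn (0.50 ± 0.19). Sdc2 and Utrn were higher in KO at day 14 as well (0.59 ± 0.04 and 1.09 ± 0.19).

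The 9 untested members had few counts. Itgb2l had 0 counts in all 15 libraries. The others (Itga4, Itgad, Itgal, Itgam, Itgax, Itgb6, Lama2 and Lamc3) had at most 42 counts in a group, that highest value being Lamc3 in KO at day 14. Itgb6, the epithelial partner of Itgav, had 24 counts in WT, 23 in HET and 2 in KO at day 14, which gave a WT to KO ratio of 13.2 (95% counting interval 3.28 to 115). Lama2, the alpha chain of muscle laminin, had 19 counts in HET and 3 in KO at day 14, a ratio of 7.22 (2.13 to 38.1). In bulk RNA, fewer cells of a type and less RNA per cell cannot be told apart, for these and for all members above. Counting intervals and bounds cover counting error only.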

How the data were processed

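RNA from 15 samples was sequenced from libraries made with the TruSeq RNA kit v2, per the labels' protocols. Each sample has 1 deposited file of raw read counts per Ensembl gene. The submitters' processing notes name TopHat2 2.1.0, HTSeq, DESeq2 and the build GRCm38.p4; for the annotation release and the strand setting, the sources used here give nothing. Symbols and exon lengths came from GENCODE M21. From the counts, edgeR 4.0.16 (R 4.3.3; filterByExpr, TMM, robust quasi-likelihood F test, all 15 libraries) tested 15296 genes in 7 comparisons, with Benjamini-Hochberg adjustment over all of them and a threshold of 0.05; the common biological coefficient of variation was 8.33%. SE is the Wald SE, with variance not below counting error. Where a group had 0 counts a bound with 3 counts over the group is given, and with 1 to 3 counts a ratio with an exact 95% interval. DESeq2 1.42.0 was an alternative. Simulated data for KO against WT at day 14 (15001 genes) gave back 90% of 1.5-fold and 96% of 2-fold changes. Changed genes were drawn only from those above a floor of mean CPM, so the rates do not cover members with low counts. The simulated libraries did not carry the tilt by gene length. Depth was 19878449 to 47486736 counts.

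The members, gene lists and motifs were chosen with earlier results of these data known. By rule, library values are printed for members called with at least a 2-fold difference in KO or HET against WT, and for 8 main chains; from each list, up to 2 genes per direction with the smallest adjusted p. The promoters shown, the grouping of alpha chains by ligand, the overlapping genes and the members in the plot of 8 were chosen after their values were seen. The results of 1 member are not reported here.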

Additional observations from a re-analysis of the deposited data

Results flagged for a closer look

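For the members named here the KO-WT difference was not the same at day 4 and day 14 by the interaction term of edgeR's quasi-likelihood test. The values are the log2 fold change of KO over WT at day 14 minus that at day 4. It was above 0, with KO gaining on WT, for Itga2 (6.06), Lama4 (5.16), Itgb7 (3.85), Itga6 (2.53), Lamb1 (1.64), Itgb2 (1.31), Itgav (1.09), Lamc1 (1.08), Itga7 (0.72), Itga5 (0.28) and Itgb1 (0.22). Lama1 was also in this group, with an adjusted p of 1.90e-05 and no size given because KO had 0 counts at day 4. It was below 0 for Itga11 (-8.48), Itga8 (-6.04), Nid2 (-3.23), Itgae (-1.88), Itga2b (-1.87), Itga1 (-1.21), Lama5 (-1.15), Nid1 (-1.12), Lamb2 (-0.74), Hspg2 (-0.71), Itga3 (-0.43) and Itgb5 (-0.19). The value of Itga11 rests on 1 count in WT at day 4. The values of Itgb1, Itgb5 and Hspg2 were lost under at least 1 alternative setting or left-out library. With 3 libraries in a group, single libraries were not tested as outliers.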

How the results depend on the processing

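The 14 counts of members called higher or lower in the 7 comparisons stayed within 1.5 times their value under every setting tried: DESeq2, RLE scaling, no filter, a filter of 1 CPM in 3 libraries, fits of only the groups compared, a replicate block, each library left out, and a correction for length and GC content that was chosen after seeing the data. Of 169 calls on single members, 148 were kept under all of these that gave a value, and 21 were lost or reversed in at least 1. Reversed, both under the length and GC correction, were Lama4 from day 4 to day 14 in WT (0.08 in place of -0.37) and the interaction of Itgb5 (0.07 in place of -0.19); the cause was not tested. Under the same correction Itga1 from day 4 to day 14 in WT went from -0.83 to -0.03. Replicate numbers did not pair samples: same-numbered libraries of different groups had correlations of -0.676 to 0.744 (median -0.02) over 30 pairs, 2 of them above 0.1. With the replicate as a block, 12 members in place of 13 were higher in HET than in WT (Itgb4 was lost) and 5 in place of 6 lower in KO than in WT at day 14 (Itga11 was lost). Members under about 1 CPM rest on few counts, and HET replicate 2 limits comparisons with HET.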
